A study of Rattus norvegicus with 9 samples.

Results

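The genes described here are the amino acid transporters of the rat kidney: every gene in the table whose symbol belongs to the solute carrier families SLC1, SLC3, SLC6, SLC7, SLC36, SLC38 and SLC43, with the osmolyte carriers Slc6a6 and Slc6a12 left out. This rule found 58 of the 19367 genes in the table. One of them, Slc7a6os, is matched by its symbol alone: it lies on the strand opposite to Slc7a6 and is not a transporter. Of the 58 genes, 37 passed a filter that asked for 3 libraries or more with an FPKM of 1 or above and were tested, and 21 did not. FPKM counts fragments relative to transcript length and to the mapped total, so it can be compared between genes.

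The study sequenced kidney RNA from 3 groups of rats with 3 libraries each. WKY are Wistar-Kyoto rats, the normotensive strain usually set against SHR, the spontaneously hypertensive rat. The third group, titled SGLT2, are SHR that received the SGLT2 inhibitor dapagliflozin by mouth at 10 mg/kg per day, and it is called treated SHR below. Rats entered at 3 months of age, treatment lasted 8 weeks, and controls received distilled water by one label and saline by another. The strain field reads Wistar-Kyoto for all 9 libraries, so the groups were taken from the titles. The labels name 3 rats per group without tying a library to a rat, so p-values measure the spread between these libraries. SHR against WKY compares the strains, treated SHR against SHR the drug within the hypertensive strain, and treated SHR against WKY both at once; each pair of these comparisons shares a group of libraries.

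The proximal tubule takes back nearly all amino acids that the glomerulus filters. Carriers of the luminal brush border, many driven by sodium, bring them into the cell, and exchangers and facilitators of the basolateral membrane pass them on to the blood. Several work only as pairs: the single-span heavy chains Slc3a1 (rBAT, luminal) and Slc3a2 (4F2hc, basolateral) carry light chains of the SLC7 family to the membrane, and defects of Slc3a1 or Slc7a9 cause cystinuria. Segments differ in their carriers, with Slc6a19, Slc7a9 and Slc7a7 prominent in the early proximal tubule and Slc3a1, Slc7a13 and Slc6a18 in its late straight part.

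The stretches of promoter shown first are those in which a search found motifs tied to amino acid control or to proximal tubule identity. The search covered the 250 bases before each transcript start in the RefSeq promoter table (GRCr8), on both strands, and 44 of the 58 genes had an entry. The letters TGATGCAA are the core of the element through which ATF4 and C/EBP proteins answer amino acid shortage, GTTAAT is a half-site of HNF1 and CAAAGTCCA is a motif of HNF4, both of them factors of the proximal tubule. Each stretch has 30 bases, runs 5′ to 3′ on the strand of the gene, and carries the match in capitals. The stretches lie at chr7:129681525-129681554 for Slc38a1, chr14:98761779-98761808 for Slc1a4, chr6:15394819-15394848 for Slc3a1 and chr2:88868174-88868203 for Slc7a12, all on the minus strand, and at chr1:31436522-31436551 for Slc6a18 and chr1:31414616-31414645 for Slc6a19 on the plus strand.
Slc38a1: gggggaaactcTGATGCAAccaaccagtcc
Slc1a4: cgcctccagcgTTGCATCAtccagccagca
Slc3a1: cttccttggcTGGACTTTGtccagccagga
Slc7a12: aataactcagaaGTTAATtattttcaaacc
Slc6a18: tgccagttatcaATTAACtgggctccttta
Slc6a19: tgcagataaggcATTAACagtgcttcggga
The match reads as spelled above in Slc38a1 and Slc7a12 and lies on the other strand in Slc1a4, Slc3a1, Slc6a18 and Slc6a19. TGATGCAA was found in 0.693% of the 33469 promoter windows of the table, GTTAAT in 6.45% and CAAAGTCCA in 0.338%. Slc7a15 was the other transporter gene with GTTAAT. A match is a description of the letters and not a bound site.

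The libraries' FPKM values summed to between 563643 and 589838. Kidney markers were present in all groups, but the lists of segment markers were not level across them. The 6 principal cell markers of the collecting duct (Aqp2, Aqp3, Avpr2, Scnn1b, Scnn1g and Hsd11b2) summed to 636 to 1216 FPKM in WKY, 1297 to 1604 in SHR and 1948 to 3641 in treated SHR, and 6 of 6 were higher in treated SHR than in WKY at an adjusted p under 0.05. The 9 early proximal markers summed to 2358 to 3229, 2696 to 3205 and 1377 to 2491 FPKM in the same order, and the 9 late proximal markers to 4423 to 7550, 4598 to 4975 and 1996 to 4908. No marker of these 3 lists was at 0 in all libraries. In bulk kidney, fewer cells of a type and less RNA per cell cannot be told apart, and the part of the segment mix in the results below was not tested beyond the values given with them.

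The luminal carriers of the proximal tubule held most of the transporter signal. Slc3a1 had the highest mean of all 58 genes, at 1892 ± 723 FPKM in WKY, 1254 ± 210 in SHR and 898 ± 716 in treated SHR (SD, n = 3 each). Slc7a13, the light chain that pairs with Slc3a1 to carry aspartate, glutamate and cystine, came next. Together they made up 57.8% to 72.3% of the summed FPKM of the 58 genes in WKY, 57.8% to 62.9% in SHR and 39.6% to 67.0% in treated SHR. The sum itself ran from 3143 to 5854 FPKM in WKY, 2703 to 3361 in SHR and 1459 to 3826 in treated SHR. The rest of the 10 most abundant were Slc6a18, Slc38a3, Slc3a2, Slc7a12, Slc6a8, Slc43a2, Slc38a2 and Slc7a9.

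Slc3a1 read 2606, 1159 and 1909 FPKM in WKY libraries 1 to 3, 1014, 1405 and 1343 in SHR, and 1724, 468 and 501 in treated SHR. Treated libraries 2 and 3 lay below every other library, while treated library 1 lay among WKY. The log2 change was -0.53 (SE 0.49) for SHR against WKY, -0.75 (SE 0.49) for treated SHR against SHR and -1.28 (SE 0.49) for treated SHR against WKY, with adjusted p of 0.565, 0.469 and 0.0872 (limma, Benjamini-Hochberg), so none passed. Slc7a13 read 1624, 658 and 1520 FPKM in WKY, 549, 700 and 499 in SHR, and 839, 110 and 196 in treated SHR. Its 3 groups overlapped through WKY library 2 and treated library 1. It was lower in treated SHR than in WKY by a log2 change of -2.16 (SE 0.66, adjusted p = 0.0467, limma), and the changes of -1.03 in SHR against WKY and -1.13 in treated SHR against SHR did not pass. This call was lost in 7 of the 9 fits that left out 1 library, with an adjusted p of up to 0.148.

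Slc7a9, the light chain of the cystine and dibasic amino acid system, moved with less spread. It read 65.2, 66.1 and 57.3 FPKM in WKY, 48.7, 43.7 and 36.6 in SHR, and 31.6, 35.9 and 15.8 in treated SHR, and no group overlapped another. Treated SHR were lower than WKY by a log2 change of -1.23 (SE 0.26, adjusted p = 0.0168, limma). The steps of -0.54 from WKY to SHR (adjusted p = 0.291) and -0.68 from SHR to treated SHR (adjusted p = 0.295) did not pass. The call was lost without WKY library 1 or WKY library 3, with an adjusted p of up to 0.0582. Slc7a12, a neutral amino acid carrier of the same family that needs neither known heavy chain, read 246, 118 and 301 FPKM in WKY, 101, 156 and 47.7 in SHR, and 86.0, 7.10 and 15.0 in treated SHR. All treated libraries lay below all WKY libraries, and the log2 change was -3.20 (SE 0.81, adjusted p = 0.0273, limma). Its adjusted p rose to up to 0.0959 in the 4 fits without WKY 1, WKY 3, treated 2 or treated 3. Treated SHR against SHR gave -2.04 (SE 0.81, adjusted p = 0.304).

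**Figure D1:**
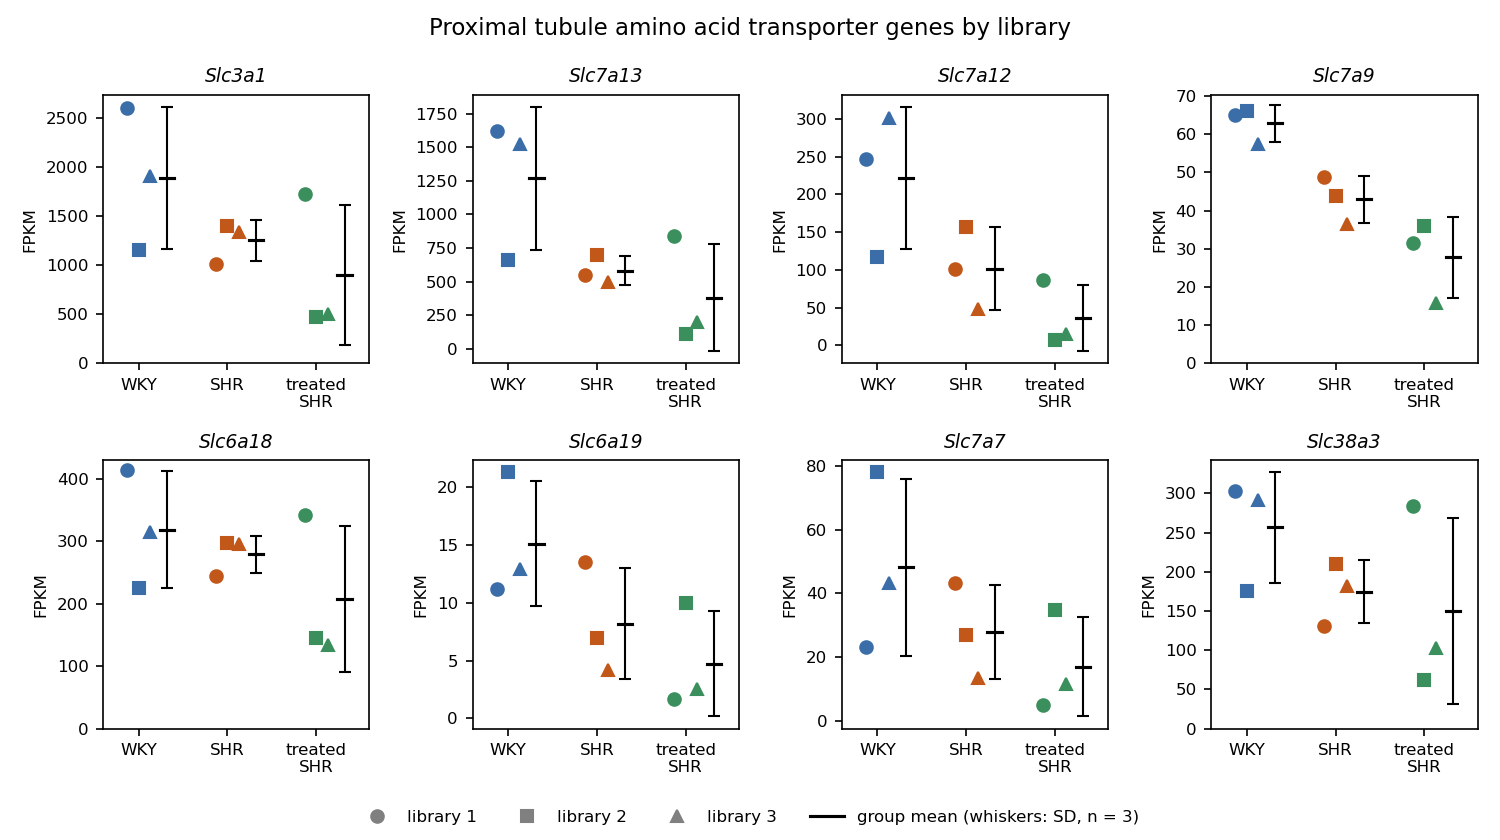
FPKM of luminal and basolateral proximal tubule carriers, and of Slc7a12, by library, one panel per gene. The group mean and SD (n = 3) stand beside the points of WKY, SHR and treated SHR. Slc7a9 shows 3 groups that do not overlap, while in Slc3a1 and Slc7a13 the circle of treated library 1 sits far above treated libraries 2 and 3.

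Of the luminal carriers other than Slc7a13 and Slc7a9, none passed in the comparisons as fitted. Slc6a19 (B0AT1), the main sodium-driven carrier of neutral amino acids in the early proximal tubule, read 11.2, 21.3 and 12.9 FPKM in WKY, 13.5, 6.92 and 4.14 in SHR, and 1.70, 9.98 and 2.52 in treated SHR. Every treated library was below every WKY library, and the log2 change of -1.73 (SE 0.55) had an adjusted p of 0.051 (limma), on the edge of the threshold. It passed in 5 of 18 alternatives: median-of-ratios scaling (adjusted p = 0.0438), quantile normalization (0.0452), the filter at an FPKM of 5 (0.0489), the replicate block (0.049) and the fit without treated 2 (0.023). Slc6a18 (B0AT3), which carries glycine and alanine, read 414, 226 and 315 FPKM in WKY, 244, 298 and 295 in SHR, and 342, 146 and 134 in treated SHR. Its change from SHR to treated SHR was -0.56 (SE 0.35, adjusted p = 0.447). Slc6a20, a proline carrier listed as Slc6a20a by RefSeq, read 22.1, 8.10 and 14.2 FPKM in WKY, 9.31, 10.2 and 11.2 in SHR, and 12.9, 6.76 and 7.68 in treated SHR. Slc1a1 (EAAT3), which takes up glutamate and aspartate, read 51.8, 31.9 and 35.5 FPKM in WKY, 27.7, 29.3 and 38.6 in SHR, and 35.95, 21.9 and 18.9 in treated SHR. The groups of Slc6a18, Slc6a20 and Slc1a1 overlapped in all 3 comparisons. Slc36a2, the proton-coupled glycine and proline carrier, stayed at or under 0.03 FPKM.

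All 7 tested luminal genes had a change below 0 in SHR against WKY and in treated SHR against SHR. The change in treated SHR against WKY is the sum of those changes, so its sign follows from them. The median log2 change of the 7 genes was -0.53 for SHR against WKY, -0.68 for treated SHR against SHR and -1.23 for treated SHR against WKY, against 0.07, 0.04 and 0.11 over all 13127 genes tested. Only Slc7a9 and Slc7a13 passed, both as lower in treated SHR than in WKY, against 6.09% of all genes tested. The 9 late proximal markers and the 9 early ones moved with them: for treated SHR against WKY, 9 of 9 late markers were below 0 with a median of -0.93 and 1 passing (Slc22a13), and 9 of 9 early markers with a median of -0.90 and 2 passing (Cubn and Slc2a2).

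The luminal genes did not follow one order over the libraries. Slc3a1, Slc7a13 and Slc6a20 were high in WKY libraries 1 and 3, and in treated library 1 compared with the other treated libraries. So was Slc7a12, which is not among the luminal genes counted here. The mean of the late proximal list was high in the same libraries. On the log2(FPKM + 1) scale it was 6.38, 5.48 and 6.07 in WKY, 5.51, 5.65 and 5.54 in SHR, and 5.66, 4.63 and 4.49 in treated SHR. Slc6a19 instead was highest in WKY library 2 and, among the treated, in library 2. The early proximal list had its highest means in the same libraries, with 6.58, 6.96 and 6.73 in WKY, 6.71, 6.46 and 6.07 in SHR, and 5.56, 6.24 and 5.35 in treated SHR. Slc5a2, which encodes SGLT2 itself and marks the earliest segment, read 9.75, 70.3 and 43.5 FPKM in WKY, 42.9, 23.7 and 2.69 in SHR, and 0.63, 20.8 and 8.35 in treated SHR.

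**Figure D2:**
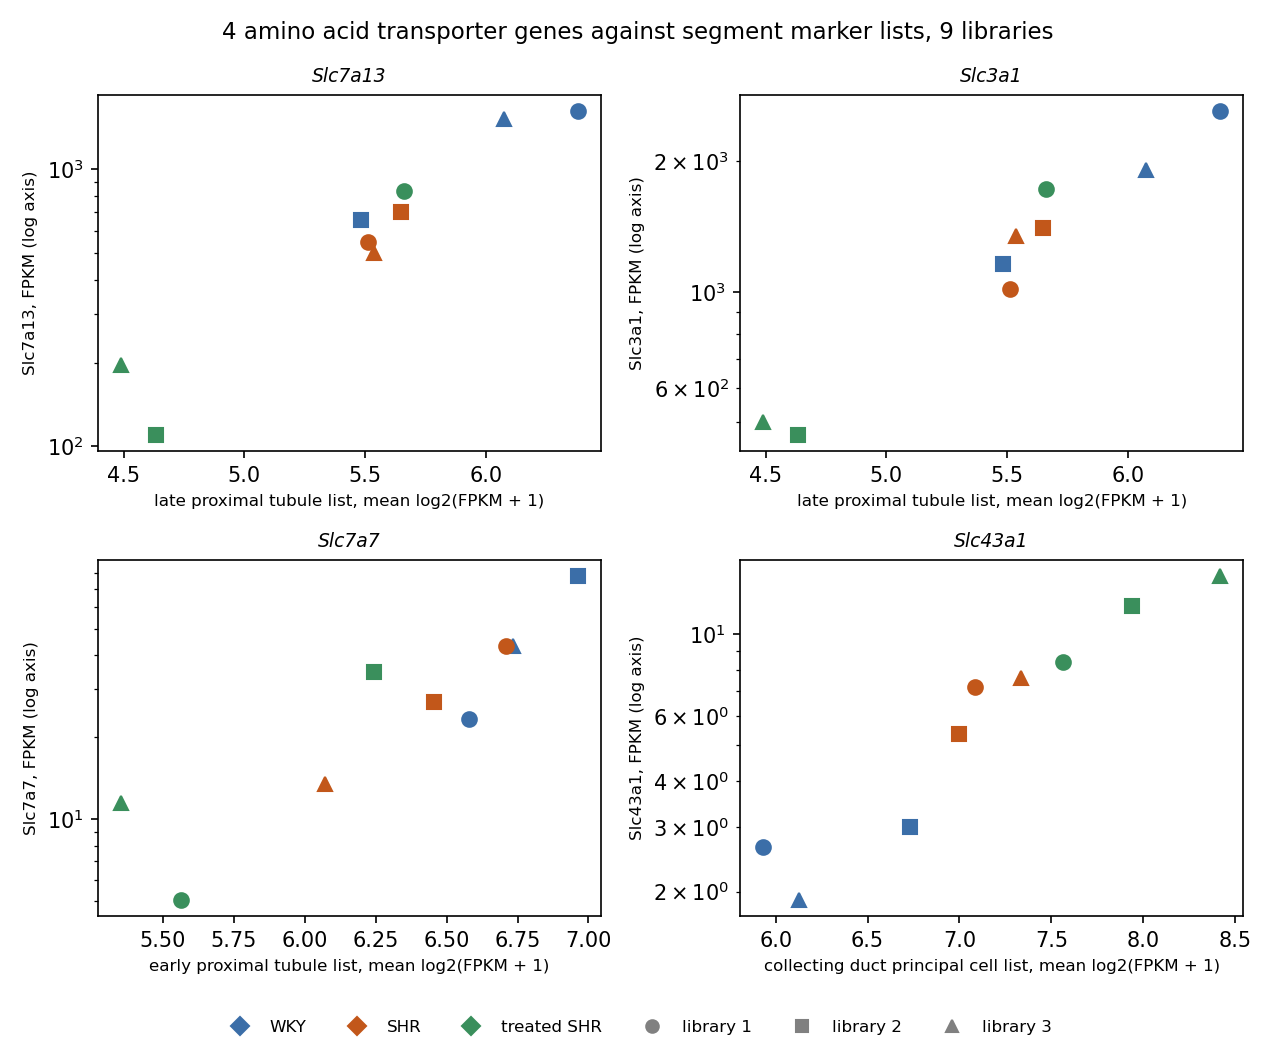
FPKM on a log axis of Slc7a13 and Slc3a1 against the mean log2(FPKM + 1) of the late proximal list, of Slc7a7 against the early proximal list and of Slc43a1 against the collecting duct principal cell list, one point per library. The genes were chosen after their values were seen. Slc43a1 and its list both have their lowest values in WKY and their highest in treated libraries 2 and 3.

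Of the listed genes of basolateral exit and exchange, 6 of 6 were tested, and they parted. Slc38a3 and Slc6a13, which also work in the basolateral membrane, are given with their families below. Slc3a2, the heavy chain, stayed within its spread at 133 ± 30.6 FPKM in WKY, 118 ± 7.30 in SHR and 141 ± 29.4 in treated SHR (SD, n = 3 each), with 106, 166 and 127 in WKY, 126, 118 and 111 in SHR, and 118, 131 and 174 in treated SHR. Slc7a7, its light chain for the exit of lysine and arginine and the gene of lysinuric protein intolerance, read 23.3, 77.9 and 43.2 FPKM in WKY, 43.2, 27.0 and 13.5 in SHR, and 5.06, 34.7 and 11.5 in treated SHR. Its log2 change of -1.66 (SE 0.68) in treated SHR against WKY had an adjusted p of 0.104 (limma), and the groups overlapped. Slc7a8 (LAT2), the light chain for neutral amino acids, read 25.2, 52.5 and 33.3 FPKM in WKY, 40.5, 27.8 and 31.0 in SHR, and 29.4, 51.0 and 54.1 in treated SHR. It was highest in WKY library 2 and treated libraries 2 and 3, and its change of 0.29 in treated SHR against WKY had an adjusted p of 0.498.

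Slc43a1 (LAT3), a facilitator of branched-chain amino acids and phenylalanine, was the transporter gene with the smallest p in SHR against WKY and in treated SHR against WKY. It read 2.64, 3.00 and 1.90 FPKM in WKY, 7.18, 5.38 and 7.63 in SHR, and 8.42, 11.97 and 14.4 in treated SHR, with no overlap between any groups. It was higher in SHR than in WKY by a log2 change of 1.14 (SE 0.20, adjusted p = 0.0211, limma) and in treated SHR than in WKY by 1.83 (SE 0.20, adjusted p = 0.00156). The change of 0.69 (SE 0.20) from SHR to treated SHR had an adjusted p of 0.281. The call in SHR against WKY was lost without WKY 1, WKY 3, SHR 1 or SHR 3 (adjusted p up to 0.0924), and the call in treated SHR against WKY held in all 9 fits without 1 library (adjusted p up to 0.00964). Slc43a2 (LAT4), its relative, read 31.5, 51.9 and 34.0 FPKM in WKY, 43.6, 39.4 and 43.2 in SHR, and 43.6, 63.8 and 72.8 in treated SHR, with an adjusted p of 0.0723 for treated SHR against WKY. Slc7a6, another partner of Slc3a2 for arginine and glutamine exchange, read 1.04, 1.72 and 1.43 FPKM in WKY, 2.38, 2.43 and 2.53 in SHR, and 2.25, 3.00 and 4.05 in treated SHR. It was higher in treated SHR than in WKY by 0.76 (SE 0.17, adjusted p = 0.0196), a call lost without WKY 1, WKY 3, treated 2 or treated 3 (adjusted p up to 0.0695).

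Slc7a5 and Slc1a5 supply neutral amino acids to growing cells in many tissues, Slc7a5 (LAT1) as a light chain of Slc3a2 and Slc1a5 (ASCT2) as a glutamine exchanger. Slc7a5 read 2.51, 3.16 and 3.58 FPKM in WKY, 5.65, 5.33 and 5.91 in SHR, and 6.21, 8.08 and 10.8 in treated SHR. No group overlapped another. It was higher in treated SHR than in WKY by 1.18 (SE 0.18, adjusted p = 0.00604, limma), while 0.71 in SHR against WKY (SE 0.18, adjusted p = 0.075) and 0.47 in treated SHR against SHR (SE 0.18, adjusted p = 0.295) did not pass. Slc1a5 read 6.88, 9.20 and 6.81 FPKM in WKY, 11.9, 10.7 and 10.2 in SHR, and 9.46, 14.0 and 16.9 in treated SHR, and was higher in treated SHR than in WKY by 0.72 (SE 0.19, adjusted p = 0.0308). That call was lost without WKY 1, WKY 3, treated 2 or treated 3 (adjusted p up to 0.105). Slc7a1 (CAT1), the general carrier of arginine and lysine, read 2.99, 4.0 and 3.41 FPKM in WKY, 3.96, 3.73 and 4.15 in SHR, and 4.32, 4.93 and 6.88 in treated SHR. It was higher in treated SHR than in WKY by 0.50 (SE 0.15, adjusted p = 0.0465), and did not pass after median-of-ratios scaling or quantile normalization, nor in 7 of the 9 fits without 1 library (adjusted p up to 0.142). Slc7a11 (xCT), the cystine and glutamate exchanger, read 0.61, 0.63 and 0.49 FPKM in WKY, 0.62, 0.76 and 1.64 in SHR, and 0.82, 0.61 and 0.78 in treated SHR and was not tested. Slc7a4, with no established transport activity, had means of 2.15, 2.40 and 4.0 FPKM in WKY, SHR and treated SHR and did not pass. Of the remaining SLC1 carriers, Slc1a3, a glutamate carrier, read 0.71, 1.11 and 0.71 FPKM in WKY, 0.91, 1.08 and 1.44 in SHR, and 1.17, 1.99 and 2.68 in treated SHR, with an adjusted p of 0.0501 for treated SHR against WKY, which does not pass. Among the alternatives, Slc1a3 passed only with a pseudocount of 0.1, with no intensity trend, with the replicate block, without WKY 2 and without treated 1. Slc1a4 (ASCT1), an exchanger of alanine, serine and cysteine, read 5.88, 1.97 and 5.61 FPKM in WKY, 1.14, 1.57 and 1.56 in SHR, and 3.55, 0.30 and 1.01 in treated SHR. Its promoter stretch, like that of Slc38a1, holds TGATGCAA. Against WKY it changed by -1.09 in SHR (adjusted p = 0.24, limma) and -1.17 in treated SHR (adjusted p = 0.0926), and neither passed.

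**Figure D3:**
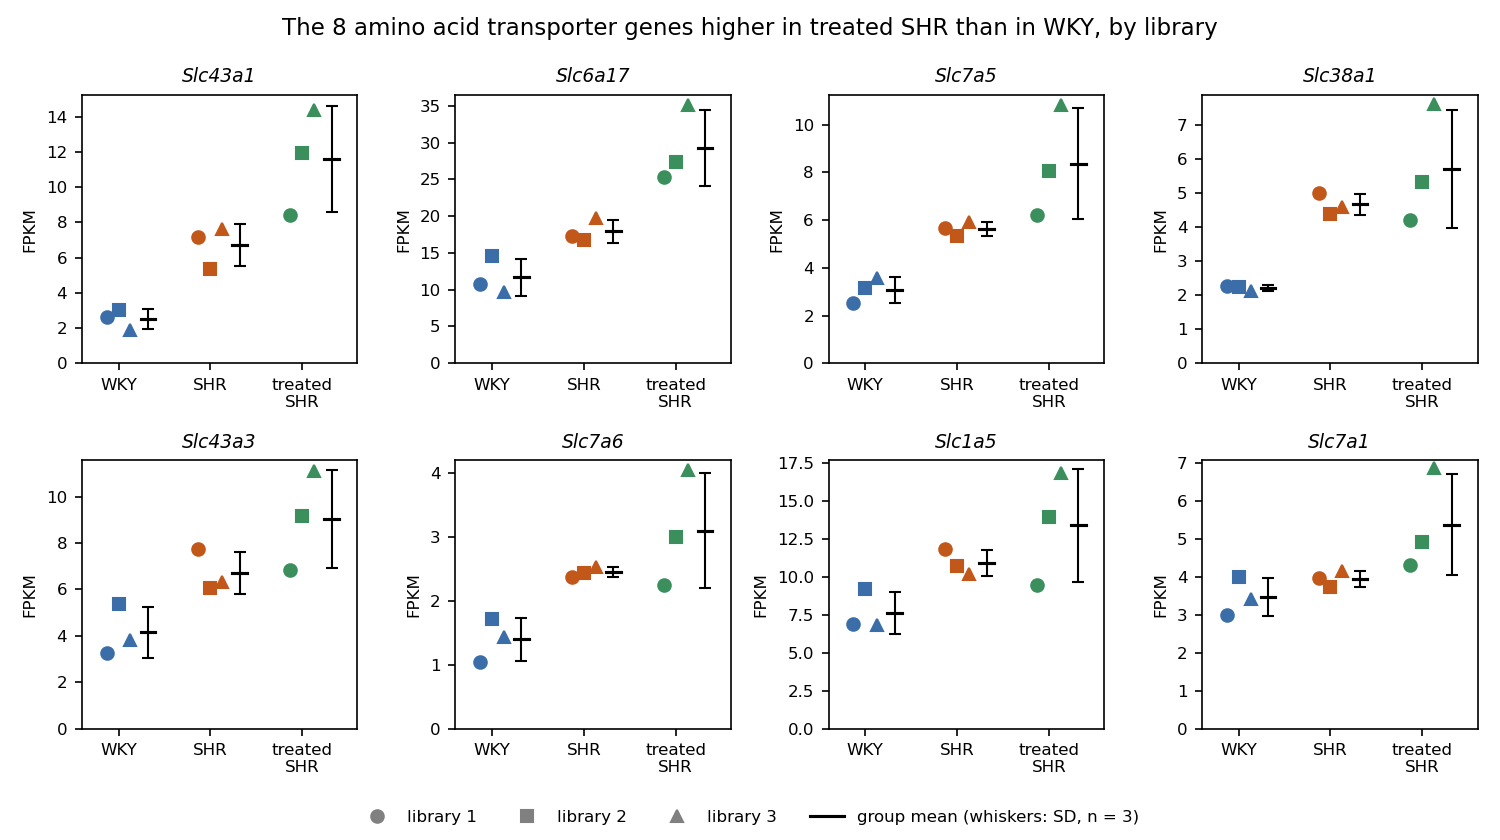
FPKM by library of the 8 transporter genes that were higher in treated SHR than in WKY, with the group mean and SD (n = 3). In all 8 genes treated library 3 is the highest of the 9 libraries, and in Slc43a1, Slc6a17 and Slc7a5 the 3 groups do not overlap.

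Of the 11 genes of the SLC38 family, which carry glutamine and small neutral amino acids, 7 were tested, with a median log2 change of -0.23 in treated SHR against WKY. Slc38a3 (SNAT3), the glutamine carrier of the basolateral membrane that serves ammonia formation, read 303, 175 and 292 FPKM in WKY, 131, 210 and 182 in SHR, and 284, 62.1 and 102 in treated SHR. Treated library 1 lay within the WKY range, and the change of -1.02 (SE 0.49) in treated SHR against WKY had an adjusted p of 0.151 (limma). Without that library it was -1.63 with an adjusted p of 0.00643. Slc38a2 (SNAT2), a carrier that many cells raise in amino acid shortage, read 50.5, 41.2 and 66.0 FPKM in WKY, 44.2, 45.9 and 40.5 in SHR, and 41.3, 35.3 and 41.1 in treated SHR, and did not pass. Slc38a1 (SNAT1), whose promoter stretch with TGATGCAA is shown above, read 2.28, 2.23 and 2.13 FPKM in WKY, 5.01, 4.40 and 4.59 in SHR, and 4.20, 5.32 and 7.61 in treated SHR. WKY lay below both SHR groups without overlap. Slc38a1 was higher in SHR than in WKY by 0.82 (SE 0.17, adjusted p = 0.0367) and in treated SHR than in WKY by 1.03 (SE 0.17, adjusted p = 0.00746), and SHR and treated SHR overlapped (0.21, adjusted p = 0.544). Without any 1 of the 6 WKY and SHR libraries or treated 2, the call in SHR against WKY was lost (adjusted p up to 0.141), while that in treated SHR against WKY held in all 9 such fits. Slc38a7 (SNAT7), which exports glutamine from lysosomes, read 11.4, 15.7 and 13.4 FPKM in WKY, 12.03, 10.01 and 9.37 in SHR, and 8.91, 10.7 and 8.09 in treated SHR, and was lower in treated SHR than in WKY by a log2 change of -0.50 (SE 0.14, adjusted p = 0.0378), a call lost in 7 of the 9 fits without 1 library (adjusted p up to 0.13). Slc38a10, Slc38a6 and the lysosomal arginine sensor Slc38a9 had means of 3.60 to 25.9 FPKM and did not pass.

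Of the proton-coupled and related carriers, Slc36a4, a high-affinity carrier of proline and tryptophan, read 9.61, 7.51 and 10.6 FPKM in WKY, 7.71, 8.12 and 7.20 in SHR, and 6.81, 6.22 and 6.10 in treated SHR. It was lower in treated SHR than in WKY by a log2 change of -0.46 (SE 0.12, adjusted p = 0.0286, limma), and the call was lost without WKY 1, WKY 3, treated 2 or treated 3 (adjusted p up to 0.10). Slc43a3, which carries purine bases rather than amino acids, read 3.25, 5.37 and 3.82 FPKM in WKY, 7.74, 6.08 and 6.31 in SHR, and 6.84, 9.17 and 11.1 in treated SHR. Treated SHR were higher than WKY by 0.96 (SE 0.19, adjusted p = 0.0145), and the call was lost without WKY 1 or WKY 3 (adjusted p up to 0.0595). Slc36a1, the lysosomal proton-coupled carrier, had means of 5.14, 3.8 and 4.09 FPKM in WKY, SHR and treated SHR and did not pass.

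The SLC6 carriers outside the brush border had 6 tested genes, of which 1 was higher and 3 were lower in treated SHR than in WKY, against 16.8% of all genes tested that were higher and 6.09% that were lower. Slc6a17 (NTT4), known as a vesicular carrier of neutral amino acids in neurons, read 10.8, 14.5 and 9.72 FPKM in WKY, 17.3, 16.8 and 19.7 in SHR, and 25.3, 27.3 and 35.2 in treated SHR. No group overlapped another. Treated SHR were higher than WKY by 1.26 (SE 0.16, adjusted p = 0.00312, limma), with 0.59 for SHR against WKY (adjusted p = 0.0989) and 0.67 for treated SHR against SHR (SE 0.16, adjusted p = 0.281). Slc6a13 (GAT2), a carrier of GABA and taurine in the basolateral membrane, read 50.1, 29.6 and 40.9 FPKM in WKY, 27.8, 28.7 and 22.8 in SHR, and 22.3, 20.5 and 10.9 in treated SHR, again without overlap. It was lower in treated SHR than in WKY by a log2 change of -1.15 (SE 0.27, adjusted p = 0.0206), a call lost without WKY 1 or WKY 3 (adjusted p up to 0.0741), and -0.59 (SE 0.27, adjusted p = 0.336) separated treated SHR from SHR. Slc6a8, the creatine carrier, read 106, 134 and 110 FPKM in WKY, 101, 84.8 and 71.5 in SHR, and 64.4, 92.8 and 67.4 in treated SHR. It was lower in treated SHR than in WKY by -0.65 (SE 0.17, adjusted p = 0.031), a call lost without any 1 WKY library or treated 3 (adjusted p up to 0.106). Slc6a15 (B0AT2), a carrier of branched-chain amino acids and proline best known from neurons, read 1.36, 1.20 and 1.32 FPKM in WKY, 0.76, 0.88 and 0.67 in SHR, and 0.99, 0.21 and 0.38 in treated SHR. Slc6a15 reached an FPKM of 1 only in WKY, so it entered the test through the group where it was high. Its change in treated SHR against WKY was -0.62 (SE 0.18, adjusted p = 0.0428), and at these low levels the size depends on the pseudocount: with 0.1 in place of 1 it was -1.35 with an adjusted p of 0.0532. This call was lost in 8 of the 9 fits without 1 library (adjusted p up to 0.137). Slc6a4, the serotonin carrier, and Slc6a9, a glycine carrier, stayed between 1.08 and 4.56 FPKM and did not pass.

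For SHR against WKY, 2 of the 37 tested genes were higher (Slc43a1 and Slc38a1), against 1.84% of all genes tested, and 0 were lower, against 1.12%. At an unadjusted p under 0.05, limma had 3 lower, against 5.36% of all genes: Slc6a8 at -0.45 (SE 0.17, adjusted p = 0.208), Slc38a7 at -0.33 (SE 0.14, adjusted p = 0.246) and Slc1a4 at -1.09 (SE 0.46, adjusted p = 0.24). Beside the 2 called genes, Slc7a5, Slc6a17, Slc43a3, Slc7a6 and Slc1a5 were higher at that unadjusted p. The share of all genes higher at that p is not given here. By library values alone, 7 genes had all SHR above all WKY libraries (20.3% of all genes) and 5 had all SHR below (8.11%). The former were Slc43a1, Slc38a1, Slc7a5, Slc7a6, Slc1a5, Slc43a3 and Slc6a17, and the latter Slc7a9, Slc6a13, Slc6a8, Slc6a15 and Slc1a4. The count of 7 of 37 is near that of all genes. The count of called genes ran from 0, without WKY 1, WKY 3, SHR 1 or SHR 3, to 4 without treated 3, and was 1 without SHR 2 or treated 2.

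For treated SHR against SHR, limma called 0 of the 37 genes in either direction, and 0.0% of all genes higher and 0.0% lower. At an unadjusted p under 0.05 it had 3 higher (Slc43a1, Slc6a17 and Slc7a5, against 9.82% of all genes) and 2 lower (Slc7a9 and Slc7a12, against 5.39%). The groups were apart in 6 genes that were higher in treated SHR (12.6% of all genes), namely Slc43a1, Slc6a17, Slc7a5, Slc7a1, Slc6a9 and Slc38a10, and in 4 that were lower (6.44%), namely Slc7a9, Slc6a13, Slc36a4 and Slc6a4. This outcome rested on treated library 1: without it, 7 genes passed, in a comparison that then rests on 2 treated libraries. The 3 higher genes were Slc43a1 at 0.88 (adjusted p = 0.036), Slc6a17 at 0.76 (adjusted p = 0.0438) and Slc7a5 at 0.65 (adjusted p = 0.0477), against 3.1% of all genes. The 4 lower genes were Slc7a12 at -3.02 (adjusted p = 0.0326), Slc7a13 at -1.97 (adjusted p = 0.036), Slc3a1 at -1.36 (adjusted p = 0.0441) and Slc6a18 at -0.99 (adjusted p = 0.0442), against 3.22%.

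For treated SHR against WKY, 8 of the 37 genes were higher, against 16.8% of all genes tested, and 8 were lower, against 6.09%. The higher genes were Slc43a1, Slc6a17, Slc7a5, Slc38a1, Slc43a3, Slc7a6, Slc1a5 and Slc7a1, and the lower Slc7a9, Slc6a13, Slc7a12, Slc36a4, Slc6a8, Slc38a7, Slc6a15 and Slc7a13. Among the lower genes, Slc6a15 passed the filter only through its WKY libraries. The share of higher genes was near the background and that of lower genes, at 21.6%, was above it. The count of lower genes was 0 without WKY 1, without WKY 3 and with only the 2 groups fitted. It was 2 without treated 3, 4 without treated 2 and 12 without treated 1, so it changed with the libraries fitted. The median over the 37 genes was -0.26, against 0.11 over all genes. In 10 genes all treated libraries were above all WKY libraries (28.2% of all genes), and in 9 all were below (10.4%). Of the 16 calls, Slc43a1, Slc6a17, Slc7a5 and Slc38a1 held in all 9 fits without 1 library, and all 16 kept their sign there. The count fell to 4 without WKY 1 or WKY 3, to 7 without treated 3 and to 9 without treated 2, and rose to 23 without treated 1. Median-of-ratios scaling, which moved the median of all genes from 0.11 to -0.01, gave 7 higher and 10 lower. The share of all genes called in these alternative fits is not given here, so their counts cannot be set against it.

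The 8 higher genes and the distal markers both had their highest value in treated library 3. In the other libraries their orders differed for some genes: treated library 1 lay below all SHR libraries in Slc38a1, Slc7a6 and Slc1a5 and above them in the principal cell list. A peak in treated library 3 was not particular to the distal lists. The podocyte (5.85), endothelial (4.56) and inner medulla (4.06) marker lists also had their highest mean log2(FPKM + 1) there. The loop of Henle, smooth muscle and stroma, leukocyte, fat and blood lists had theirs in other libraries. The median-of-ratios scaling factor was likewise largest in treated library 3, at 1.09, against 0.929 to 0.976 in WKY. The principal cell list had mean log2(FPKM + 1) values of 5.93, 6.73 and 6.13 in WKY, 7.08, 7.0 and 7.34 in SHR, and 7.56, 7.94 and 8.42 in treated SHR. The intercalated cell markers were likewise 6 of 6 higher in treated SHR than in WKY, with sums of 480 to 654 FPKM in WKY, 772 to 1191 in SHR and 1056 to 1795 in treated SHR. With the means of the early and late proximal lists as covariates, which also take away part of any true group difference, 0 of the 37 genes passed in any comparison. That fit has 4 residual degrees of freedom. The share of all genes passing in it is not given here, so the count cannot be set against it. For treated SHR against WKY, Slc43a1 went from 1.83 to 1.03 (adjusted p = 0.60), Slc6a17 from 1.26 to 0.49, Slc7a5 from 1.18 to 0.39, Slc38a1 from 1.03 to 0.32, Slc1a5 from 0.72 to 0.08 and Slc7a6 from 0.76 to 0.01, while Slc7a1 went from 0.50 to -0.25 and Slc7a9 from -1.23 to 0.37 (adjusted p = 0.89). For SHR against WKY, Slc43a1 went from 1.14 to 0.84 (adjusted p = 0.0656). How much of each change goes with the segment mix and how much with levels within a segment was not tested.

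**Figure D4:**
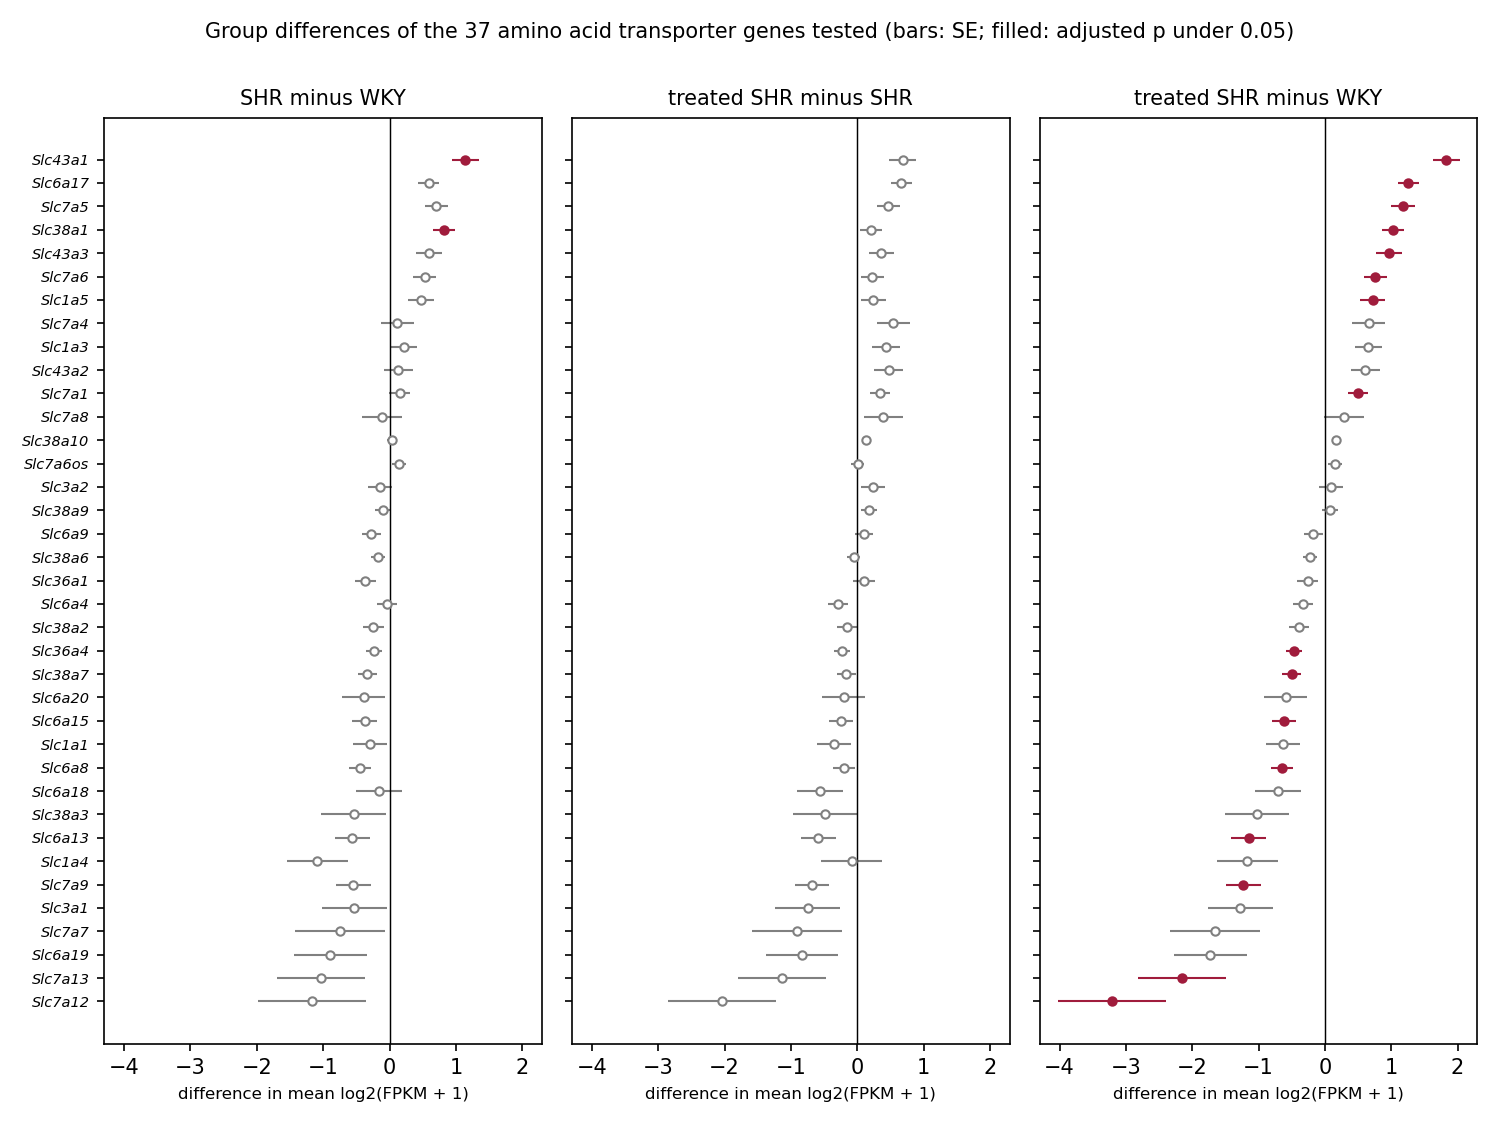
Log2 change on the log2(FPKM + 1) scale of the tested transporter genes in the 3 comparisons, with filled markers for genes that passed at an adjusted p under 0.05 and whiskers for the SE. In treated SHR against WKY, 8 genes passed as higher and 8 as lower, in SHR against WKY 2 passed as higher, and in treated SHR against SHR no marker is filled.

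Ratios of FPKM between genes within a library were chosen after the values were seen and are given without a test. Slc7a13 per Slc3a1, a light chain and its heavy chain, was 0.623, 0.568 and 0.796 in WKY, 0.541, 0.498 and 0.371 in SHR, and 0.487, 0.235 and 0.391 in treated SHR. All WKY libraries lay above all SHR and treated libraries, and SHR and treated SHR overlapped. Slc7a9, the other light chain of Slc3a1, did not part the groups: its ratio to Slc3a1 was 0.0374 ± 0.0172 in WKY, 0.0355 ± 0.0111 in SHR and 0.0422 ± 0.0306 in treated SHR (SD, n = 3 each), and all groups overlapped. The light chains of Slc3a2 (Slc7a5, Slc7a6, Slc7a7, Slc7a8 and Slc7a11) came to 0.654 ± 0.160 per Slc3a2 in WKY, 0.587 ± 0.129 in SHR and 0.526 ± 0.193 in treated SHR, again with overlap. Slc7a7 made up 48.0%, 59.7% and 56.5% of the summed FPKM of Slc7a7 and Slc7a8, light chains of separate systems, in WKY, 51.6%, 49.3% and 30.4% in SHR, and 14.7%, 40.5% and 17.5% in treated SHR. The share was below all WKY values in every treated library.

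**Figure D5:**
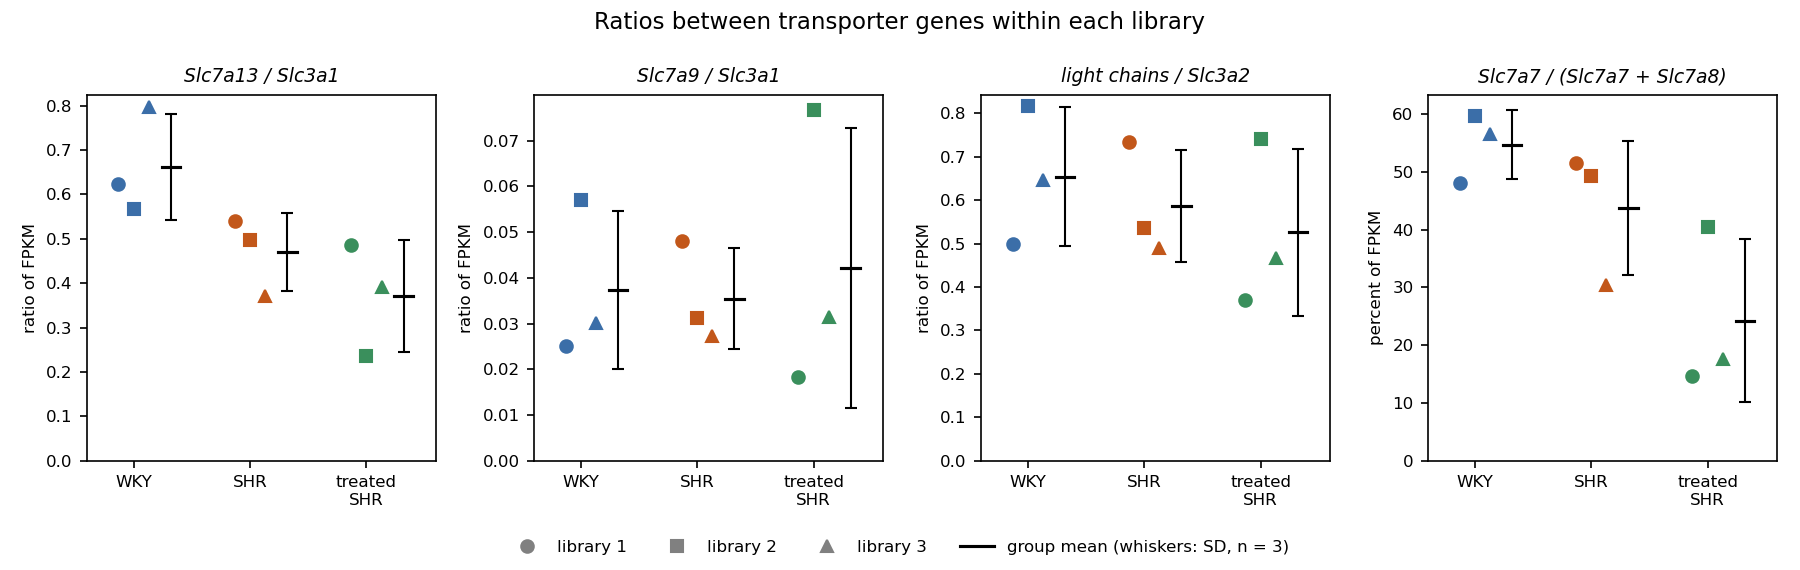
Ratios of FPKM between transporter genes by library, with the group mean and SD (n = 3); the light chains over Slc3a2 are Slc7a5, Slc7a6, Slc7a7, Slc7a8 and Slc7a11. Slc7a13 per Slc3a1 is higher in all 3 WKY libraries than in the 6 SHR libraries, Slc7a9 per Slc3a1 and the light chains per Slc3a2 overlap in all groups, and the Slc7a7 share is lowest in treated libraries 1 and 3.

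Other genes of amino acid handling were read from lists of partners, enzymes and response genes. Of 9 tested partners and further carriers, 0 were higher and 2 lower in treated SHR than in WKY, against 16.8% and 6.09% of all genes tested. Cltrn (collectrin), which brings Slc6a19 and its relatives to the brush border, read 1125, 897 and 971 FPKM in WKY, 702, 570 and 653 in SHR, and 492, 465 and 254 in treated SHR. Its groups did not overlap, and the log2 change in treated SHR against WKY was -1.36 (SE 0.24, adjusted p = 0.00967, limma), a call that held in all 9 fits without 1 library (adjusted p up to 0.0425). Ctns, the lysosomal cystine exporter, had a change of -0.29 (SE 0.08, adjusted p = 0.039), a call lost in 8 of those 9 fits (adjusted p up to 0.129).

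Of 39 tested enzymes of renal amino acid metabolism, 5 were higher and 6 lower in treated SHR than in WKY, against 16.8% and 6.09% of all genes tested. As shares of the list, fewer were higher and more were lower than among all genes. The median change was -0.49, against 0.11 over all genes, and none passed in the other comparisons. The 4 with the smallest p were Shmt1, Bcat2, Got2 and Bckdhb. Bcat2, the mitochondrial transaminase of branched-chain amino acids, read 53.9, 85.1 and 58.1 FPKM in WKY, 85.5, 85.4 and 85.9 in SHR, and 99.4, 144 and 165 in treated SHR, a change of 1.04 (SE 0.21, adjusted p = 0.0142, limma) that did not pass without WKY 1 or WKY 3 (adjusted p up to 0.0606). Shmt1, which links serine and glycine in the cytosol, read 78.9, 63.2 and 79.8 FPKM in WKY, 41.7, 46.1 and 39.1 in SHR, and 42.5, 29.4 and 23.1 in treated SHR, a change of -1.23 (SE 0.20, adjusted p = 0.00708) that held in all 9 fits without 1 library. Got2, the mitochondrial aspartate transaminase, changed by 0.41 (SE 0.08, adjusted p = 0.0146), and Bckdhb, a subunit of the branched-chain keto acid dehydrogenase, by 0.37 (SE 0.09, adjusted p = 0.0231). The call of Got2 was lost without WKY 1, WKY 3 or treated 2 (adjusted p up to 0.0643), and that of Bckdhb without WKY 1, WKY 3 or treated 3 (adjusted p up to 0.0826) and after median-of-ratios scaling.

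Of 11 tested genes of the amino acid response, 1 was higher and 1 lower in SHR than in WKY, against 1.84% and 1.12% of all genes tested. In treated SHR against WKY, 3 were higher and 1 lower, against 16.8% and 6.09%. These are small counts, and their distance from those shares was not tested. Ddit4, a stress-induced brake on mTORC1, read 6.97, 9.20 and 6.80 FPKM in WKY, 21.4, 23.6 and 13.8 in SHR, and 14.3, 14.4 and 14.6 in treated SHR. It was higher in SHR than in WKY by 1.23 (SE 0.18, adjusted p = 0.0091, limma) and in treated SHR than in WKY by 0.85 (SE 0.18, adjusted p = 0.0179). Vldlr, a lipoprotein receptor, was lower in SHR than in WKY by -0.68 (SE 0.10, adjusted p = 0.00818) and in treated SHR than in WKY by -0.38 (adjusted p = 0.0311). Trib3, an ATF4 target, and Eif2ak4, the kinase GCN2 that senses uncharged tRNA, were higher in treated SHR than in WKY by 0.64 (adjusted p = 0.03) and 0.41 (adjusted p = 0.0478). Trib3 read 0.85, 0.77 and 0.58 FPKM in WKY, 0.65, 0.76 and 0.88 in SHR, and 1.15, 1.79 and 2.28 in treated SHR. Trib3 thus reached an FPKM of 1 only in treated SHR and entered the test through the group where it was high. With 1 library left out, the call of Ddit4 in SHR against WKY was lost without WKY 3 or SHR 1 (adjusted p up to 0.0531) and that of Vldlr held in all 9 fits. In treated SHR against WKY, the calls were lost in 4 of the 9 fits for Ddit4 and Trib3 (without WKY 1, WKY 3, treated 2 or treated 3), in 5 for Vldlr and in 7 for Eif2ak4, with an adjusted p of up to 0.152. With the proximal list means as covariates, Ddit4 (1.34, adjusted p = 0.0253, limma) and Vldlr (-0.73, adjusted p = 0.00815) still passed in SHR against WKY. In that fit Ddit4, Vldlr, Trib3 and Eif2ak4 did not pass in treated SHR against WKY (adjusted p of 0.62 or above). Asns, asparagine synthetase and a standard ATF4 target, read 12.3, 7.55 and 14.2 FPKM in WKY, 7.15, 6.86 and 7.51 in SHR, and 7.5, 7.12 and 8.11 in treated SHR, and did not pass.

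The 21 genes that were not tested stayed at or under 1.64 FPKM in every library, the highest being Slc7a11. Slc1a6 and Slc36a3 were listed at 0 in all 9 libraries. Among the others were Slc1a2, Slc1a7, Slc36a2, Slc38a4, Slc38a5, Slc38a8, Slc38a11, Slc6a3, Slc6a5, Slc6a7, Slc6a11, Slc6a16, Slc7a2, Slc7a3, Slc7a10, Slc7a14 and Slc7a15. They include carriers best known from brain or liver, such as the glial glutamate carrier Slc1a2 and the arginine carrier Slc7a2. Slc7a6os, the neighbour that is not a transporter, had means of 8.27, 9.28 and 9.32 FPKM in WKY, SHR and treated SHR and did not pass.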

How the data were processed

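Kidney RNA of 9 libraries, 3 per group, was read as single-end reads of 50 bases, per the labels' protocols. HISAT2 2.0.4, Bowtie2 2.2.5 and a rat build are named in the submitters' processing notes with no role. The authors deposited FPKM per gene, and the file holds no counts, so depth is unknown and no counting error is given. A change is in log2(FPKM + 1) and understates that of low genes. Genes with FPKM of at least 1 in at least 3 libraries (13127 of 19367) were fitted with limma 3.58.1 in R 4.3.3: group means over all 9 libraries, 6 residual degrees of freedom, an intensity trend, two-sided, Benjamini-Hochberg over all genes fitted, called at an adjusted p under 0.05. Simulated data had 100 genes shifted by 1 and 100 by 2 on the log2 scale among 13127. For treated SHR against WKY, the fit found 80 and 91 of them, with 9 false calls. In the real libraries that comparison called 16.8% of genes higher and 6.09% lower, larger shares than were shifted in the simulation. Whole lists of segment markers also moved together there. Whether the simulated rates hold for such data, or for low genes such as Slc6a15, was not tested. The members and lists were chosen with earlier results of these data known. Named with statistics were all called genes and, in a comparison with few calls, the 3 higher and 3 lower genes of smallest p; named with values were the 10 most abundant and a fixed set of known carriers; of the other lists, at most 4 called genes per comparison by smallest p, and Asns, chosen after its values were seen. Slc6a2, Slc6a10 and Slc6a14 are not analysed here, and some genes are not reported here. Alternatives were another scaling, pseudocount, filter, variance prior and set of samples, a replicate block, segment covariates and each library left out. All 58 gene IDs matched the RefSeq table, 57 with the same symbol.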

Additional observations from a re-analysis of the deposited data

How the results depend on the processing

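Each count of calls and each change given as called or among the smallest p was recomputed under 18 alternatives, or 17 for Slc1a4, Slc6a15, Slc7a1, Slc7a6, Trib3 and Eif2ak4, which the filter at an FPKM of 5 leaves out. For SHR against WKY, the 2 calls became 1 with no filter, 0 with the replicate block, 0 with the early and late proximal list means as covariates (4 residual degrees of freedom) and 0 to 4 when each library was left out in turn. For treated SHR against SHR, the count of 0 changed only without treated library 1, and ranged from 0 to 7 over the 9 fits without 1 library. For treated SHR against WKY, the 16 calls became 5 with only the 2 groups compared, 0 with the covariates and 4 to 23 with 1 library left out; the replicate block gave 16, of which 14 were among the main calls. Deviations from the group means correlated from -0.328 to 0.456 between same-numbered libraries and from -0.532 to 0.327 between different-numbered ones. With 3 libraries per group, these values cannot settle whether the numbers pair the libraries. The other alternatives gave counts within 1.5 times the main count. Reversed signs occurred only with the covariates: for treated SHR against SHR, Slc7a5 -0.0276, Slc7a9 0.35, Slc6a13 0.39 and Slc6a18 0.0331; for treated SHR against WKY, Slc6a13 0.385, Slc7a1 -0.25, Slc7a9 0.37 and Trib3 -0.0188. The cause of these changes was not tested. The covariates leave fewer degrees of freedom and take part of the group difference. Among these alternatives, the share of all genes called is given only for treated SHR against SHR without treated library 1. For the others, a loss of calls may not be particular to the transporter genes.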
